A study of Mus musculus with 8 samples.

Results

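Ino80e and the other core subunits of the INO80 chromatin remodelling complex were followed through 8 poly(A) RNA libraries from mouse medial prefrontal cortex. The 10 genes are Ino80e, Ino80, Ino80b, Ino80c, Ino80d, Actr5, Actr8, Nfrkb, Uchl5 and Mcrs1. They were chosen by name as subunits of the complex, out of 54446 gene identifiers in the count table, and all 10 were among the 17636 genes that passed the filter on low counts. The series started from a human schizophrenia risk locus that holds INO80E and altered the expression of the mouse gene by injecting an adeno-associated virus into this brain region. Of the libraries, 4 carry the label of Ino80e overexpression and 4 that of wild type. Not given in the sources used here are the viral promoter and serotype, the cells infected, the strain and age of the mice, and any control virus in the wild-type group. Since they name no mouse for a library, the replicates may be partly technical, and p-values measure only the spread among libraries.

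INO80 uses the energy of ATP hydrolysis to slide and space nucleosomes and has been tied to the distribution of the histone variant H2A.Z around gene starts. The ATPase Ino80 is the scaffold: a metazoan module that includes Ino80d, Ino80e, Mcrs1, Nfrkb, Uchl5 and Tfpt sits at its N-terminal end, an actin-related module with Actr8 binds in the middle, and the Actr5, Ino80b and Ino80c subunits join with the Ruvbl1-Ruvbl2 ring at the motor domain. In the developing mouse cortex, loss of Ino80 is known to impair DNA repair in dividing progenitors.

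Library totals ran from 44762378 to 60490153 counts. Levels are given in CPM, counts divided by a TMM-scaled library size (TMM, a trimmed mean of log ratios between libraries), and differences between groups are log2 fold changes of the libraries labelled overexpression minus wild type. A gene was called changed at an adjusted p under 0.05 in edgeR's quasi-likelihood test over all genes, which called 6 genes. The markers of all 8 cell classes checked, from neurons and cortical layers to choroid plexus and striatum, had counts in every library. For each class, the summed marker levels of the 2 groups overlapped. Of 42 single markers 0 were called and 4 were at an unadjusted edgeR p under 0.05, where 10.7% of all genes were. These 4 were higher: the astrocyte marker Gfap (log2 0.48) and the microglia markers Tmem119 (0.23), Csf1r (0.18) and Cx3cr1 (0.14). The other microglia markers were below 0, P2ry12 at -0.12 and Aif1 at -0.070. Of the other astrocyte markers, Aqp4 (-0.065), Gja1 (-0.068) and Slc1a3 (-0.0066) were below 0 and Aldh1l1 (0.076) above. The part of these markers in the subunit values was not tested. Choroid plexus markers summed to 1117 CPM in wild-type replicate 4 and to 7.88 to 108 CPM in the other 7 libraries. Overexpression replicate 1 held the highest microglia marker sum (306 CPM), and the lowest oligodendrocyte (3367 CPM) and striatal (101 CPM) sums. It was also the library with the most Ino80e, and the part of those cells in its values was not tested. In tissue RNA, fewer cells of a type and less RNA per cell cannot be told apart.

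Ino80e, a small coiled-coil subunit of the metazoan module and the gene the virus was meant to raise, stood above the wild-type range in 2 of the 4 libraries labelled overexpression. Its gene (ENSMUSG00000030689) lies on the minus strand at chr7:126850960-126862377 of GRCm38. Ino80e was at 74.1, 23.4, 23.3 and 45.04 CPM in overexpression replicates 1 to 4 and at 22.3, 19.5, 25.5 and 20.7 CPM in wild-type replicates 1 to 4. Replicates 1 and 4 were high, replicates 2 and 3 lay inside the wild-type range, and so the groups overlapped. Against the wild-type mean, the level was 3.36 times as high in replicate 1, 1.06 times in replicates 2 and 3, and 2.05 times in replicate 4.

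The group means were 41.5 ± 24.0 CPM and 22.0 ± 2.60 CPM (SD, n = 4 each), and the log2 fold change was 0.91 (SE 0.42, 95% interval -0.11 to 1.94, edgeR adjusted p = 0.51). For Ino80e the exact permutation test on log2 CPM (two-sided, 70 arrangements) gave p = 0.114, and no arrangement of 4 and 4 libraries can give less than 0.0286. Without replicates 2 and 3 the log2 fold change of Ino80e was 1.43 (SE 0.21, edgeR adjusted p = 0.35), and without replicates 1 and 4 it was 0.085 (SE 0.11, edgeR adjusted p = 0.89). Both pairs were picked by their Ino80e level. For Ino80e itself the sizes in these 2 fits follow from that choice and are no test. By their levels in CPM, replicates 2 and 3 do not meet their label. The results that follow are stated by label, not by Ino80e level.

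Reads over the Ino80e locus have several annotated sources. Exons of Doc2a share 1103 bases and exons of Hirip3 share 150 bases with those of Ino80e on the opposite strand, together 16.4% of its exonic length. The libraries were made with strand marking, but no source used here says whether counting used the strand, so those counts are uncertain. Counts per gene also cannot tell reads of a viral copy of Ino80e, where counted, from those of the mouse gene. In overexpression replicate 1, where Ino80e was at 3.36 times its wild-type mean, Doc2a was at 1.21 times its own, its highest of the 8 libraries, and Hirip3 at 1.05 times. In replicate 4, where Ino80e was at 2.05 times, Doc2a was at 1.05 and Hirip3 at 1.17 times, the highest of Hirip3. The annotated start of Hirip3 lies 405 bases from the farthest annotated start of Ino80e, which lies inside Hirip3 on the opposite strand. The stretch between the start of Hirip3 in RefSeq and the nearest of the shorter Ino80e transcripts is at chr7:126861870-126861928 (GRCm38.p6, plus strand, from the RefSeq promoter table) and is shown because both transcripts start at its edges. A longer annotated Ino80e transcript runs across it. Capitals mark CpG pairs, of which it holds 9 in 59 bases.

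Ino80e-Hirip3 gap: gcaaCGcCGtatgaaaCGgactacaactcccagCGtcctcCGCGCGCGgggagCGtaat

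None of the 10 subunits passed the test, where 0.034% of all genes tested did, and 0 of 10 were called in each of 19 alternative fits, those without replicates 2 and 3 or without replicates 1 and 4 among them. DESeq2 called 0.249% of all genes and limma-voom 0.00567%, with no subunit among them. Without replicates 2 and 3 edgeR called 0.0054% of genes, and without replicates 1 and 4 it called 0.0325%. At an unadjusted p under 0.05 stood 2 of the 10, Uchl5 and Mcrs1, against 10.7% of all genes. The log2 fold change was above 0 in 4 subunits (Ino80e, Ino80d, Nfrkb and Mcrs1) and below 0 in 6, where 50.5% of all genes were above 0; Ino80b, at -0.0019, was above 0 with upper-quartile scaling. Over the 9 subunits other than Ino80e the median was -0.02, against 0.0016 over all genes tested. Their 95% intervals lay between -0.42 and 0.28 on the log2 scale, so that larger differences of the group means were outside them.

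**Figure D1:**
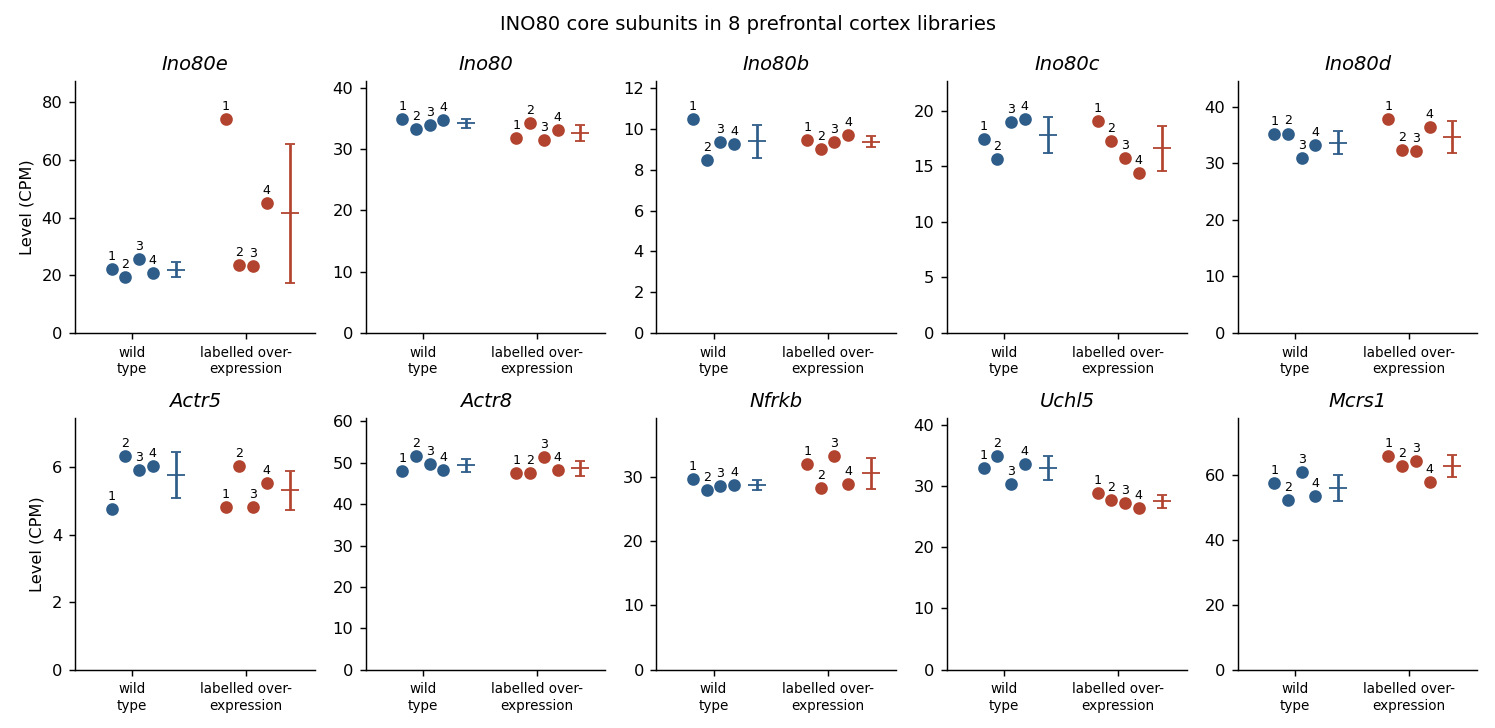
Level in CPM (vertical axes, each from 0) of the 10 core subunits in each library, with points numbered by replicate and the mean and SD of the 4 libraries of a group beside them. Ino80e is high in overexpression replicates 1 and 4 only, at 74.1 and 45.04 CPM, and Uchl5 is the subunit whose 2 groups do not overlap.

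Uchl5, a deubiquitinase that also works at the proteasome and is held inactive within INO80, was the subunit with the lowest p. Its gene (ENSMUSG00000018189) lies on the plus strand at chr1:143777272-143807466. Uchl5 was at 28.8, 27.7, 27.1 and 26.4 CPM in overexpression replicates 1 to 4 and at 32.9, 34.9, 30.3 and 33.6 CPM in wild type. All 4 libraries labelled overexpression were below all 4 wild-type libraries, which made it the single core subunit without overlap, where 5.84% of all genes tested had groups that did not overlap. The means were 27.5 ± 1.05 and 32.9 ± 1.89 CPM (SD, n = 4 each), 0.836 times the wild-type level with a 95% interval of 0.757 to 0.923. On the log2 scale the difference was -0.26 (SE 0.069), with an unadjusted p of 0.0010 and an adjusted p of 0.27 in edgeR's quasi-likelihood test, rank 66 of 17636 genes by p. The exact two-sided permutation p was 0.0286, the smallest possible.

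Without replicates 2 and 3 the log2 difference in Uchl5 was -0.25 (edgeR adjusted p = 0.58). Without replicates 1 and 4 it was -0.26 (edgeR adjusted p = 0.66). All 4 libraries labelled overexpression lay below the wild-type range, so the sign with either pair was fixed beforehand. These 2 fits are no test of a relation to Ino80e. The adjusted p of Uchl5 ran from 0.063 in DESeq2 to 0.93 in edgeR after a correction for GC content, where the log2 difference was -0.15 (SE 0.064). Fold changes in this comparison rose with the GC content of a gene's longest transcript (Spearman's rho 0.64 across 11326 genes, which are not independent replicates). The source of this trend was not tested. The Uchl5 transcript has 39.2% GC, and the 912 genes within 2 points of it had a median log2 difference of -0.11.

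The annotated start of Trove2, which encodes the RNA-binding Ro60 protein, lies 204 bases from that of Uchl5 on the opposite strand. Trove2, named after its values were seen, was at 55.4, 50.05, 48.95 and 56.1 CPM under the overexpression label, against 59.0, 62.9, 52.6 and 56.2 CPM in wild type. Its groups overlapped, and the log2 difference was -0.13 (SE 0.063, edgeR adjusted p = 0.46). An opposite-strand gene start within 1000 bases was found for 2 of the 10 subunits, Ino80e and Uchl5. Part of the stretch between the annotated Trove2 and Uchl5 transcripts, at chr1:143777069-143777233 on the plus strand, is shown for the subunit with the lowest p. It begins next to Trove2 and ends before the annotated start of Uchl5. It was taken from the RefSeq promoter table of GRCm38.p6, capitals mark CpG pairs, and GC content is 71.5% with 16 such pairs in 165 bases.

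Uchl5 upstream: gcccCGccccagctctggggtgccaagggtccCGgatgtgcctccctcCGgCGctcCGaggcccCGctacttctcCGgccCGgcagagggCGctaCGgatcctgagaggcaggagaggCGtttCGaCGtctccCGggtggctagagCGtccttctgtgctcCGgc

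Mcrs1, a forkhead-associated domain protein that also belongs to the NSL acetyltransferase complex, was the other subunit at an unadjusted p under 0.05. The gene (ENSMUSG00000037570) is on the minus strand at chr15:99242817-99251961. Mcrs1 was at 65.9, 62.9, 64.3 and 58.1 CPM in overexpression replicates 1 to 4 and at 57.6, 52.3, 61.1 and 53.5 CPM in wild type. Replicates 1, 2 and 3 lay above the wild-type range and replicate 4 inside it. The means were 62.8 ± 3.39 and 56.1 ± 4.01 CPM (SD, n = 4 each), and did not pass the test. The log2 difference was 0.16 (SE 0.060, 95% interval 0.04 to 0.28), with an unadjusted p of 0.013 and an adjusted p of 0.36 in edgeR's quasi-likelihood test. The exact two-sided permutation p was 0.0571. Its transcript has 57.4% GC, at which genes within 2 points had a median of 0.083, and after the correction for GC content the difference was 0.07 (SE 0.053, edgeR adjusted p = 0.97). Without replicates 2 and 3 it was 0.14 (SE 0.078, edgeR adjusted p = 0.72).

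Among the other subunits, the correction for GC content moved Actr5 to -0.22 (SE 0.15), Ino80b to -0.11 (SE 0.11), Ino80d to 0.12 (SE 0.067), Ino80c to -0.06 (SE 0.096), Nfrkb to 0.05 (SE 0.069) and Actr8 to 0.01 (SE 0.053). Ino80 stayed at -0.06 (SE 0.061), and Ino80e was at 0.92 (SE 0.43).

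**Figure D2:**
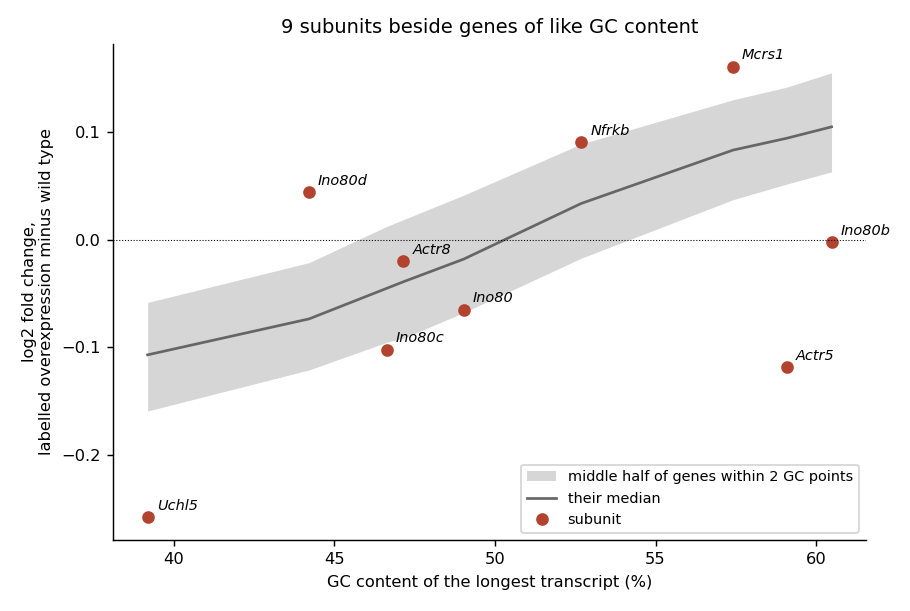
Log2 fold change (vertical axis) of the 9 subunits other than Ino80e against the GC content in percent of the longest transcript, with the median (grey line) and interquartile range (grey band) of all genes within 2 GC points of each subunit. The grey median climbs with GC content, and Uchl5 at -0.26 lies below the median of -0.11 at its GC content while Mcrs1 at 0.16 lies above that of 0.083.

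The bases upstream of Mcrs1 are shown as those of the subunit with the highest level and the second lowest p. They lie at chr15:99251962-99252211 (GRCm38.p6, minus strand, RefSeq promoter table) and carry 23 CpG pairs, in capitals, in 250 bases, with 62.8% GC. The end nearest the gene overlaps exons of the opposite-strand noncoding gene 1700120C14Rik. Both a YY1 core motif (AANATGG) and an ETS motif (CCGGAAG) match these letters on at least 1 strand.

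Mcrs1 upstream: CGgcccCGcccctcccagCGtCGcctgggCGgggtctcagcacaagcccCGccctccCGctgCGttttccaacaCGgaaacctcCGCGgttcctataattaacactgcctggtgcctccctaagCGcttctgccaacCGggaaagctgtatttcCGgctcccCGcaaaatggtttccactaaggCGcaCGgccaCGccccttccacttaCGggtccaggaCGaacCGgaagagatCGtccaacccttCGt

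In the RefSeq promoter table, 6 of the 10 subunits had a window of 300 bases around a start, Ino80e with 2 of them. Among these 6 subunits the YY1 core motif, searched on both strands, was present for 3 (Ino80b, Ino80e and Mcrs1), and 16.1% of all 32851 windows hold it. The ETS motif was present for 2 (Ino80b and Mcrs1; 8.86% of all windows), the NRF1 motif for Ino80e alone (4.60%), CCAAT for 3 (37.4%) and TATAAA for 0 (13.6%). The windows of Uchl5, Ino80 and Nfrkb had 73.3%, 70.0% and 67.3% GC with 36, 32 and 35 CpG pairs, where the median window has 52.7% GC and 7 pairs. That of Mcrs1 had 62.7% GC with 28 pairs and that of Ino80b 51.3% GC with 17 pairs. The windows of Ino80e had 56.7% GC each, with 23 and 15 pairs. A match is a description of letters, not of a bound site.

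The other members of the metazoan module were Ino80d, whose role is little described, and Nfrkb, the subunit that holds Uchl5 in its inactive form. Ino80d (ENSMUSG00000040865; minus strand, chr1:62958418-63114667) was at 37.7, 32.4, 32.1 and 36.4 CPM in overexpression replicates 1 to 4, against 35.1, 35.2, 30.9 and 33.3 CPM in wild type. Replicates 1 and 4, the libraries with raised Ino80e, were above the wild-type range and replicates 2 and 3 inside it. The log2 difference was 0.04 (SE 0.072, edgeR adjusted p = 0.85), and it was 0.14 (SE 0.083, edgeR adjusted p = 0.73) without replicates 2 and 3 and -0.06 (SE 0.085, edgeR adjusted p = 0.91) without replicates 1 and 4.

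Nfrkb (ENSMUSG00000042185; plus strand, chr9:31386192-31421333) was at 32.0, 28.3, 33.2 and 28.9 CPM in overexpression replicates 1 to 4, against 29.7, 27.9, 28.6 and 28.8 CPM in wild type. Replicates 1 and 3 were high, and the groups overlapped. Its log2 difference was 0.09 (SE 0.071, edgeR adjusted p = 0.66).

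The ATPase Ino80 (ENSMUSG00000034154; minus strand, chr2:119373042-119477687) was at 31.8, 34.3, 31.4 and 33.1 CPM in overexpression replicates 1 to 4, against 34.8, 33.3, 33.9 and 34.7 CPM in wild type. Replicates 1, 3 and 4 were below the wild-type range, by little, and replicate 2 was inside it. The log2 difference was -0.06 (SE 0.064, 95% interval -0.20 to 0.07, edgeR adjusted p = 0.73).

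The actin-related subunits bracket the motor: Actr8, with actin, reads the DNA that leaves the nucleosome, and Actr5 grips the nucleosome itself. Actr8 (ENSMUSG00000015971; plus strand, chr14:29978337-30006354) was at 47.4, 47.6, 51.3 and 48.3 CPM in overexpression replicates 1 to 4, against 47.9, 51.6, 49.6 and 48.2 CPM in wild type, a log2 difference of -0.02 (SE 0.056, edgeR adjusted p = 0.93). Actr5 (ENSMUSG00000037761; plus strand, chr2:158624888-158639211) was the lowest of the 10, at 4.83, 6.03, 4.83 and 5.54 CPM against 4.77, 6.32, 5.91 and 6.02 CPM in wild type. All 4 of its libraries labelled overexpression lay inside the wild-type range, and the log2 difference was -0.12 (SE 0.14, edgeR adjusted p = 0.79). With 214 to 324 reads per library it had the widest interval of the 9 subunits, from -0.42 to 0.18.

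Ino80b and Ino80c are the mammalian counterparts of the yeast subunits Ies2 and Ies6, the first an activator of the motor and the second the partner of Actr5. Ino80b (ENSMUSG00000030034; minus strand, chr6:83121765-83125431) was at 9.48, 9.01, 9.36 and 9.69 CPM against 10.5, 8.48, 9.36 and 9.29 CPM in wild type. Its libraries labelled overexpression all lay inside the wild-type range, with a log2 difference of -0.0019 (SE 0.11, edgeR adjusted p = 0.997). Ino80c (ENSMUSG00000047989; minus strand, chr18:24104757-24121953) was at 19.04, 17.3, 15.7 and 14.4 CPM against 17.5, 15.6, 18.95 and 19.2 CPM in wild type. Replicate 4 alone was below the wild-type range, and the log2 difference was -0.10 (SE 0.097, edgeR adjusted p = 0.72).

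**Figure D3:**
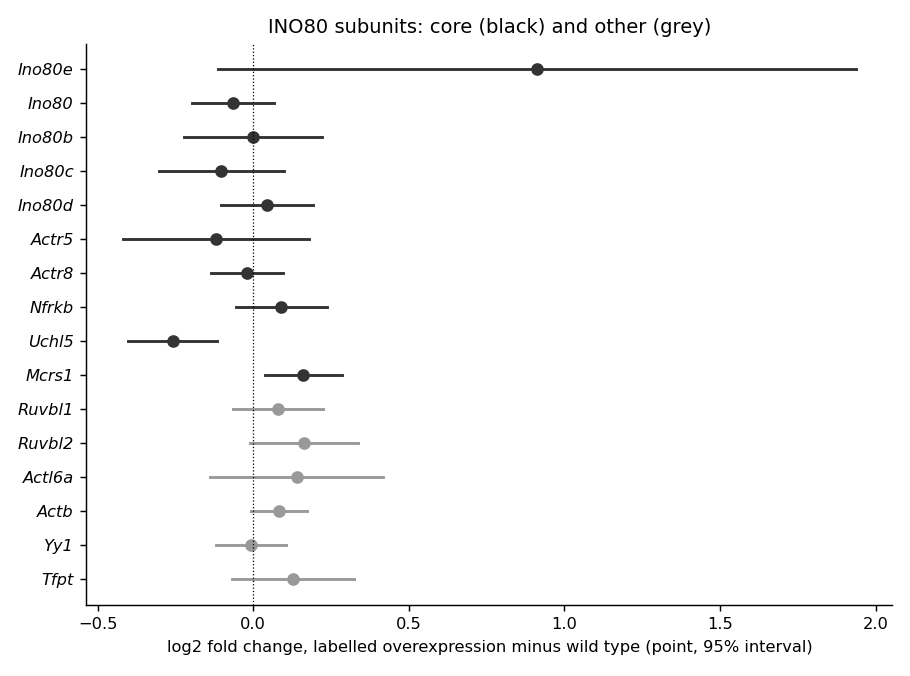
Log2 fold change, labelled overexpression minus wild type (horizontal axis), of the 10 core subunits (black) and 6 other subunits (grey), with points for the edgeR estimate and bars for its 95% interval. The interval of Ino80e reaches from -0.11 to 1.94, and those of the 9 other core subunits stay between -0.42 and 0.28.

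The 6 subunits that INO80 shares with other complexes or that were left out of the core list gave 0 calls, against 0.034% of genes. Of them 5 were above 0 (6 with upper-quartile scaling), where 50.5% of all genes were, and the median log2 difference was 0.11. After the correction for GC content the median was 0.053, with Ruvbl2 at 0.07 (SE 0.079), Tfpt at 0.04 (SE 0.097) and Ruvbl1 at 0.04 (SE 0.068). With that correction Actl6a was at 0.15 (SE 0.13), Actb at 0.06 (SE 0.043) and Yy1 at -0.02 (SE 0.053). Ruvbl2, of the AAA+ ATPase ring, was at 20.8, 18.9, 20.9 and 19.0 CPM against 18.6, 15.9, 18.7 and 17.9 CPM in wild type. Its groups did not overlap, as in 5.84% of all genes, and the log2 difference was 0.16 (SE 0.084, edgeR adjusted p = 0.50). Its partner Ruvbl1 had a log2 difference of 0.08 (SE 0.070), the actin-related Actl6a, which BAF complexes also use, 0.14 (SE 0.13), and actin itself, Actb, 0.08 (SE 0.043). The metazoan module subunit Tfpt had 0.13 (SE 0.094), and the transcription factor Yy1, which binds INO80, -0.01 (SE 0.055). The lowest adjusted p among the 6 was 0.50 in edgeR's test.

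Per length, the subunits were not equally abundant in wild type. Levels were set per kilobase of annotated exon (RPKM). Mcrs1 was highest at 16.0 ± 1.14 RPKM (SD, n = 4), followed by Uchl5 at 11.3 ± 0.649 RPKM. Ino80c at 6.30 ± 0.581, Ino80b at 5.90 ± 0.513, Actr8 at 5.48 ± 0.185 and the ATPase Ino80 at 5.02 ± 0.107 RPKM formed the middle. Ino80e at 2.88 ± 0.341, Nfrkb at 2.55 ± 0.0660, Ino80d at 1.90 ± 0.114 and Actr5 at 1.37 ± 0.163 RPKM were the lowest.

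The highest level was 11.6 times the lowest. Among neighbours in this order, Ino80c with Ino80b, Ino80b with Actr8, and Ino80e with Nfrkb overlapped in their 4 wild-type libraries, and the other 6 pairs did not. Among 14919 protein-coding genes tested, Mcrs1 stood at the 81.4th percentile, Ino80 at the 54.4th and Actr5 at the 27.4th.

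Part of that order rests on which exons are counted as the gene's length. All annotated exons of Ino80e add up to 7644 bases, retained introns among them, while its principal coding transcript has 1973 bases. On the length of principal transcripts, an alternative chosen after seeing the data, Ino80e was at 11.2 RPKM in wild type and ranked 4 of 10 in place of 7. Actr8 went from 5.48 to 21.2 RPKM, rank 2. By mean, Mcrs1 stayed highest and Actr5 lowest on each of the 3 lengths tried. On principal transcripts the wild-type libraries of Actr5 (mean 2.40 RPKM) and Ino80d (mean 2.48 RPKM) overlapped.

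**Figure D4:**
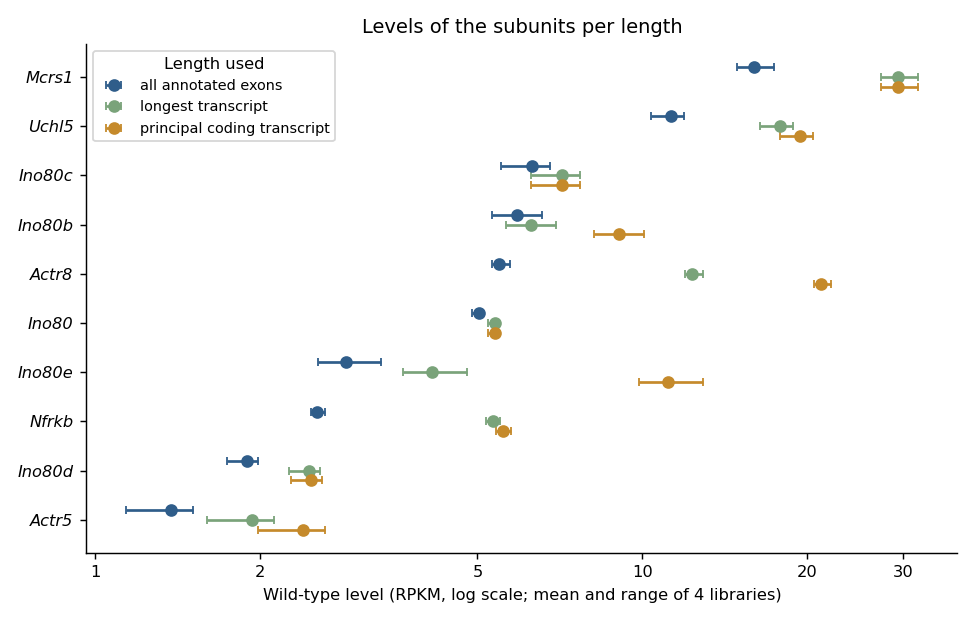
Wild-type level in RPKM (horizontal log axis) of the 10 subunits, as mean (point) and range (bar) of 4 libraries, on the length of all annotated exons, of the longest transcript and of the principal coding transcript. By mean, Mcrs1 is highest and Actr5 lowest on each length, though Actr5 and Ino80d overlap on the principal coding transcript. Ino80e moves from 2.88 to 11.2 RPKM between the first length and the last.

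The share of Ino80e in the complex's transcripts and its ratio to Ino80 are computed from its own level. They describe the same Ino80e counts and are no further evidence beside them. On the length of all exons, Ino80e made up 14.4%, 5.25%, 5.23% and 10.02% of the summed RPKM of the 10 subunits in overexpression replicates 1 to 4 and 4.91%, 4.49%, 5.57% and 4.64% in wild type. It ranked 3 of 10 in replicate 1 and 4 of 10 in replicate 4, and 7 of 10 in the other 6 libraries. Any reads of a viral copy were divided by annotated lengths that this copy may not have. Shares, ranks and ratios per length are therefore uncertain in replicates 1 and 4. On the length of principal transcripts the shares were 26.4%, 10.5%, 10.3% and 19.0% against 8.97% to 11.1% in wild type, with ranks 1 and 2 in replicates 1 and 4 and rank 4 in the others. The ratio of Ino80e to Ino80 transcripts per length, which does not depend on how libraries are scaled, was 2.07, 0.608, 0.660 and 1.21 in overexpression replicates 1 to 4, against 0.571, 0.522, 0.670 and 0.532 in wild type. Replicates 2 and 3 again fell within the wild-type range. On the length of principal transcripts the ratio was 7.49, 2.20, 2.39 and 4.38 against 1.89 to 2.42 in wild type, so whether Ino80e stood below or above Ino80 in wild type turned with the length used. The mean log2 difference of the ratio between groups, the same on each length, was 0.81, with an exact two-sided permutation p of 0.0857. It was 0.46 without overexpression replicate 1 and 1.47 without replicates 2 and 3, a pair picked by its Ino80e level.

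The other subunits were then read beside the Ino80e level of each library. In overexpression replicate 1, with the most Ino80e, 3 of the 9 others were above the wild-type range (Ino80d, Nfrkb and Mcrs1; 21.5% of all genes were) and 3 below it (Ino80, Actr8 and Uchl5; 21.7%). In replicate 4, with the next most, 1 was above (Ino80d; 22.4%) and 3 below (Ino80, Ino80c and Uchl5; 21.7%). In replicate 2, with Ino80e in the wild-type range, 1 was above (Mcrs1; 20.8%) and 2 below (Actr8 and Uchl5; 21.2%).

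In replicate 3, likewise, 2 were above (Nfrkb and Mcrs1; 22.4%) and 2 below (Ino80 and Uchl5; 22.0%). The mean log2 shift of the 9 subunits from their wild-type mean was 0.0093, -0.025, -0.046 and -0.058 in overexpression replicates 1 to 4. The wild-type libraries themselves ranged from -0.016 to 0.013. Replicate 1 was inside that range and replicates 2, 3 and 4 below it, as a mean over members that lay on both sides of 0.

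**Figure D5:**
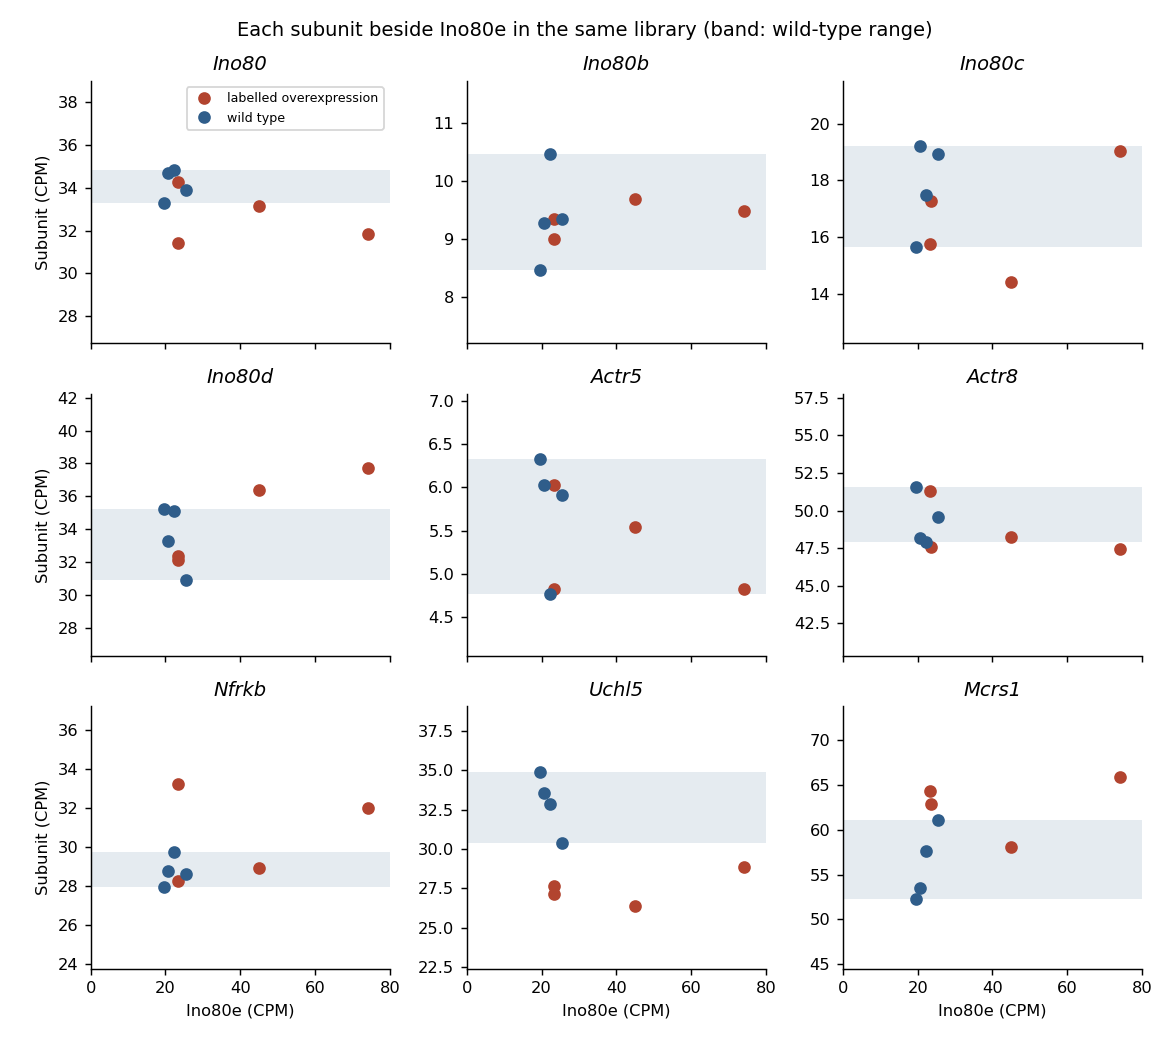
Level in CPM of each of the 9 other subunits (vertical axes, not from 0) against Ino80e in the same library (horizontal axis), with the wild-type range as a band. Uchl5 lies below the band in all 4 libraries labelled overexpression, and Ino80d lies above it in the 2 libraries with raised Ino80e.

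Ino80e levels fell into a cluster of 6 libraries, within 0.39 on the log2 scale, and 2 libraries above it by a gap of 0.82, so no correlation was tested over all 8. The 6 libraries were all those of wild type and overexpression replicates 2 and 3. Within them, 9 relations were tested, over 720 arrangements each, which mixed the 2 labels. Replicates 2 and 3 had the lowest Uchl5 (27.7 and 27.1 CPM) and the highest Mcrs1 (62.9 and 64.3 CPM) of the 6. For these subunits r therefore also carries the difference by label. Mcrs1 had a Pearson's r of 0.86 with Ino80e (exact permutation p = 0.036, adjusted over the 9 relations p = 0.21) and a Spearman's rho of 0.77 (exact permutation p = 0.103). Ino80d had r = -0.82 (exact permutation p = 0.047, adjusted p = 0.21) and rho = -0.89 (exact permutation p = 0.033, adjusted p = 0.30). Uchl5 had r = -0.72 (exact permutation p = 0.117, adjusted p = 0.35).

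None passed after adjustment. The sign for Ino80d within the 6 libraries was opposite to its high levels in the 2 libraries with raised Ino80e. For the remaining 6 subunits r lay between -0.30 and 0.37.

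The 5 protein-coding genes most like Ino80e were picked by the highest Pearson's r of log2 CPM over the 8 libraries among 11097 genes, as a description in which libraries and depth are shared and the 2 libraries with raised Ino80e weigh heavily. Aldh1a2, a retinoic acid-synthesising enzyme, had r = 0.97. It was at 14.9, 10.6, 9.79 and 12.9 CPM in overexpression replicates 1 to 4, against 9.27 to 10.3 CPM in wild type. Gpatch3 had r = 0.94, Arl6ip4 and Mast1 0.93, and Srrm3 0.93.

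Without the 2 libraries with raised Ino80e, r was 0.38 for Aldh1a2, 0.61 for Gpatch3, -0.08 for Mast1 and 0.41 for Srrm3, so these likenesses rest on those libraries. For Arl6ip4, at 36.4, 31.3, 30.5 and 35.04 CPM against 27.0 to 31.1 CPM in wild type, it stayed at 0.92. None of the 5 was called (lowest edgeR adjusted p 0.37, for Arl6ip4). By r over the 8 libraries, the subunit most like Ino80e was Ino80d, at rank 466 of 11097, then Mcrs1 at 1154 and Nfrkb at 2049. Ino80 and Uchl5 were at 9832 and 9743. Without the 2 libraries with raised Ino80e, r for Ino80d was -0.82, so its rank rests on those libraries.

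Genes of H2A.Z, its chaperones and the complexes that deposit it, 19 in all, gave 0 calls, against 0.034% of all genes. Of the 19, 11 were above 0, where 50.5% of all genes were, and the median log2 difference was 0.0053. H2afz, which encodes the main H2A.Z form, was at 78.6, 80.1, 81.3 and 81.4 CPM against 86.0, 70.9, 76.1 and 87.1 CPM in wild type, with a log2 difference of 0.01 (SE 0.061, edgeR adjusted p = 0.98). H2afv, the second H2A.Z gene, was at 19.9 to 21.2 CPM against 17.9 to 19.3 CPM. Its groups did not overlap, as in 5.84% of all genes, and the log2 difference was 0.14 (SE 0.077, edgeR adjusted p = 0.52). Anp32e, a chaperone that removes H2A.Z, was at 111 to 121 CPM against 117 to 140 CPM in wild type.

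Its groups overlapped, and the log2 difference was -0.13 (SE 0.057, edgeR adjusted p = 0.43). It was the single one of the 19 at an unadjusted p under 0.05, where 10.7% of all genes were. The SRCAP and TIP60 subunit Vps72, which binds H2A.Z, had 0.16 (SE 0.081, edgeR adjusted p = 0.47). The TIP60 subunits Mrgbp and Morf4l1 had 0.21 (SE 0.12, edgeR adjusted p = 0.56) and -0.09 (SE 0.050, edgeR adjusted p = 0.51). After the correction for GC content Anp32e was at -0.06 (SE 0.050), Morf4l1 at 0.0025 (SE 0.048) and Mrgbp at 0.15 (SE 0.12), nearer to 0. Vps72 at 0.22 (SE 0.077), H2afv at 0.18 (SE 0.076) and H2afz at 0.02 (SE 0.058) were farther from 0.

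The 4 neighbours of Ino80e on chromosome 7 had a median log2 difference of 0.15, and none was called, where 0.034% of all genes were. All 4 were above 0, against 50.5% of all genes. After the correction for GC content the median was 0.064 with 3 above 0: Doc2a was at 0.05 (SE 0.074), Kctd13 at 0.07 (SE 0.048), Hirip3 at 0.09 (SE 0.069) and Taok2 at -0.04 (SE 0.044). Kctd13, an adaptor of cullin ubiquitin ligases, lies farther off at chr7:126928879-126945631 and is not directly adjacent. It was at 107 to 118 CPM against 94.1 to 105 CPM in wild type (log2 0.17, SE 0.054, edgeR adjusted p = 0.31). The groups of Kctd13 did not overlap, as in 5.84% of all genes. Doc2a, a calcium sensor of transmitter release, was at 28.4 to 32.8 CPM against 24.9 to 27.9 CPM, also without overlap (log2 0.17, SE 0.074, edgeR adjusted p = 0.43). Hirip3, a histone chaperone, was at 28.7, 28.5, 31.0 and 32.2 CPM against 28.7, 26.5, 26.3 and 28.2 CPM (log2 0.14, SE 0.071, edgeR adjusted p = 0.50). The kinase gene Taok2 had a log2 difference of 0.05 (SE 0.047, edgeR adjusted p = 0.75). In each of the 4, the highest library labelled overexpression was at most 1.21 times the wild-type mean, against 3.36 times for Ino80e.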

How the data were processed

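The deposited table holds raw read counts per Ensembl gene, 1 column per library, made by the authors. The submitters' processing notes name, without role or order, Trimmomatic 0.39, STAR 2.7.10, featureCounts 2.0.3, mm10 and GRCm38. Not given in the sources used here: strand setting, annotation release, treatment of multi-mapping reads. Libraries were made from poly(A) RNA with dUTP strand marking, per the labels' protocols. Groups and replicate numbers came from the sample titles.

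Symbols, coordinates and lengths came from GENCODE M21 (GRCm38), with 54409 of 54446 identifiers matched. After filterByExpr, 17636 genes were scaled by TMM and tested with edgeR 4.0.16 in R 4.3.3 (robust quasi-likelihood F test, Benjamini-Hochberg adjusted p under 0.05 over all genes). Standard errors were the log2 fold change over the square root of F. Log2 CPM used a prior count of 2. The common biological coefficient of variation was 12.9%, and no 2 libraries were copies (lowest chi-square per degree of freedom 9.53). Data were simulated with these libraries' means and sizes (17380 genes, 50 changed per size), each change the same in all 4 libraries of a group. There edgeR recovered 28% of 1.25-fold, 66% of 1.5-fold, 96% of 2-fold and 100% of 4-fold changes and made 10 false calls.

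Alternatives were other scalings, other low-count filters, DESeq2 1.42.0, limma-voom (limma 3.58.1), a fit without robustness, replicate number as block, a GC-content spline with 5 degrees of freedom as an offset, other gene lengths and leaving out libraries. The principal-transcript length was added after seeing the data. The subunits, gene lists and pairs of libraries left out were chosen with earlier results of these data known. Named genes were all 10 core and 6 other subunits, H2afz and H2afv with the 5 lowest p of the H2A.Z list, 4 neighbours of Ino80e and the 5 genes most like it. Sequences came from RefSeq's promoter table.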

Additional observations from a re-analysis of the deposited data

Results flagged for a closer look

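Among 78 groups of 4 libraries (39 genes in both groups: the 10 core and 6 other subunits, all 19 genes of the H2A.Z list and the 4 neighbours of Ino80e), 1 held a library that stood apart from the others, where chance gives about 1 in 20. Doc2a, the gene whose exons overlap those of Ino80e most, was at 24.9 CPM in wild-type replicate 3, against 27.7 to 27.9 CPM in the other 3 wild-type libraries. The gap was 0.933 of the group's range. Without that library the log2 difference of Doc2a was 0.13 (SE 0.077, edgeR adjusted p = 0.48) in place of 0.17.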

How the results depend on the processing

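No core subunit was called under any of the 19 alternative fits. The log2 fold change of Ino80e stayed above 0 in all of them, with adjusted p from 0.33 (DESeq2) to 0.97 (GC-content offset). Its unadjusted p was 0.073 in the edgeR fit reported, 0.0025 in edgeR without robust estimation and 0.032 in DESeq2. In edgeR it was 0.040 without overexpression replicate 2, 0.038 without replicate 3 and 6.2e-04 without both, a pair picked by its Ino80e level. In the other fits it was above 0.05. The count of changed genes was 6 in the fit reported. It was 83 with no low-count filter, 44 in DESeq2, 1 in limma-voom, 2 without robust estimation and 1 without overexpression replicates 2 and 3. Leaving out single libraries gave 1 to 8 genes: 1 without overexpression replicate 2 or any 1 wild-type library, 2 without overexpression replicate 1 or 3, and 8 without overexpression replicate 4. The cause was not tested. The same replicate numbers do not pair the libraries (correlations of deviations -0.051, -0.043, 0.015 and 0.027, and 0 of 8 libraries correlated best with their own number). With the replicate number as a block, 1 gene was called and Ino80b was at 8.4e-04 in place of -0.0019.

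The log2 fold change of Ino80e was 0.47 without overexpression replicate 1. The median of the 9 other subunits, -0.02 as reported, was -0.057 with the GC-content offset, -0.043 without overexpression replicates 2 and 3, -0.057 without replicates 1 and 4, and -0.051 to -0.0079 with single libraries left out. Signs turned for 7 named genes. Ino80b was 0.0049 with upper-quartile scaling, 4.2e-04 with no filter, 0.0034 in limma-voom, 0.029 without replicates 2 and 3, and 0.017 to 0.053 in the fits without overexpression replicate 2 or wild-type replicate 1, over a range of -0.11 to 0.053. Yy1 was 5.7e-04 with upper-quartile scaling, 0.011 without replicates 2 and 3, and 0.0072, 0.014 and 0.028 without overexpression replicate 2 or 4 or wild-type replicate 2, over a range of -0.039 to 0.028. H2afz was -7.7e-04 without replicates 2 and 3, and -7.0e-04, -9.3e-04, -0.052 and -0.018 without overexpression replicate 3 or 4 or wild-type replicate 2 or 3, over a range of -0.052 to 0.048. Actr8 was 0.013 and Morf4l1 0.0025 with the GC-content offset, where Taok2 was -0.041. Without replicates 1 and 4, Actr8 was 0.0038 and Ino80d -0.059.

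With 4 libraries a group, edgeR recovered 66% of simulated 1.5-fold changes and 28% of the smallest fold simulated. The estimates of all 9 subunits other than Ino80e were smaller than the smallest fold simulated. The simulation therefore gives no detection rate at their sizes. Whether its rates hold for these libraries, where fold changes rose with GC content, was not tested.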
